A study of Mus musculus with 8 samples.

Results

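The genes described here are 8 components of insulin and growth factor signalling: the adaptors Irs1 and Irs2, the catalytic subunits Pik3ca and Pik3cb, the regulatory subunits Pik3r1 and Pik3r3, and the kinases Akt1 and Akt2. They were taken by symbol from a transcriptome table of 34478 mouse genes, and all 8 had the mean normalized count of at least 10 that 15888 genes reached. The table covers 4 primary pancreatic ductal adenocarcinoma (PDAC) lines, #1, #3, #5 and #10, each grown from a pancreatic tumor and each measured once with the vehicle DMSO and once after 48 h of the MEK inhibitor trametinib (MEKi). Every line, in both groups, carries the alleles Ptf1a wt/Cre and Trp53 loxP/loxP, in which Cre made from the Ptf1a locus, a gene of pancreatic progenitors and acinar cells, removes Trp53. Trametinib was given at the IC50 of each line, so that the dose was set line by line, and n is the number of lines.

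In this pathway an activated insulin or IGF receptor phosphorylates IRS adaptors, which recruit a regulatory PI3K subunit and, with it, a catalytic subunit to the membrane. The lipid product PIP3 brings AKT to the membrane, where AKT is activated, keeps FOXO transcription factors out of the nucleus and raises TOR complex activity. TOR output in turn dampens IRS proteins, while FOXO factors can raise transcription of receptor and IRS genes, and the pathway runs beside the RAF-MEK-ERK cascade that trametinib blocks. These are relations between proteins and their phosphorylated forms, whereas the values below are RNA levels.

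Of the 8 genes, Pik3r3, Pik3r1 and Irs1 rose with trametinib and Akt1 fell. The regulatory subunits changed most: Pik3r3 rose 2.97-fold and Pik3r1 1.90-fold. Irs1 rose 1.57-fold, with line #3 far above the other lines, and Akt1 fell by 0.54 on the log2 scale. The test was limma on log2(normalized count + 1) in which each line formed a block, p-values were adjusted by Benjamini-Hochberg over the 15888 genes, and a gene was called at an adjusted p under 0.05. Without the line block, Irs1 and Akt1 missed this threshold (limma adjusted p = 0.146 and 0.08999). Irs1 was called in 8 of 15 alternative settings of the analysis. Calls were common in these data: 53.0% of all genes tested were called, 27.3% as higher and 25.6% as lower, beside 4 of the 8 genes, 3 higher and 1 lower. The median log2 change was 0.03 over the 8 genes and 0.07 over all genes tested.

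The 8 libraries had 30680091 to 36385719 normalized counts in all, and 10 of 10 listed readouts of MEK activity fell, with a median log2 change of -3.06. Etv4, an ETS factor induced through ERK, changed by -5.92 and Egr1, an immediate early gene, by -4.64 (both log2). The keratins Krt7, Krt8, Krt18 and Krt19 were abundant in both groups, as in ductal epithelium, but Epcam, another epithelial marker, was listed at 0 in both libraries of lines #1, #5 and #10 and at 10.4 (DMSO) and 3.75 (trametinib) normalized counts in line #3. A listed 0 need not mean a silent gene in this table, since Tsc2, a TORC1 regulator that cells use widely, was also listed at 0 in 7 of 8 libraries. Over 10 ductal epithelial markers the summed level was 231412 to 353673 with DMSO and 120865 to 232845 with trametinib. Of the 9 with a mean high enough to be tested, 6 were called lower and 1, Cldn4, higher. Over 10 fibroblast markers the sum was 96.9 to 369 with DMSO and 440 to 1260 with trametinib, and Lum was listed at 0 in every library. Of the 5 fibroblast markers tested, 1, Col1a1, was called higher (log2 change 3.60), and it made up 1110 of the 1260 in line #10. Sums over 6 macrophage markers were 1122 to 2668 and 1339 to 3807. Cd14, which was not called (limma adjusted p = 0.446), made up 3571 of the 3807 in line #5. Of the 5 macrophage markers tested, 1, Csf1r, was called higher (log2 change 2.83). Sums over 5 endothelial markers were 35.2 to 62.9 and 63.7 to 837. Of the 3 endothelial markers tested, 1, Tek, was called higher (log2 change 3.77), and it made up 805 of the 837 in line #3. Of the endocrine markers Ins2, Gcg and Sst were listed at 0 throughout, as was the acinar Cpa1. Acinar sums were 55.1 to 261 with DMSO and 34.6 to 132 with trametinib. Cela1, called lower (log2 change -0.73), was the only acinar marker tested, the others being too low. Cela1 made up 247 of the 261 in line #10. The part of these marker shifts in the changes below was not tested, and in bulk RNA fewer cells of a type and less RNA per cell cannot be told apart.

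**Figure D1:**
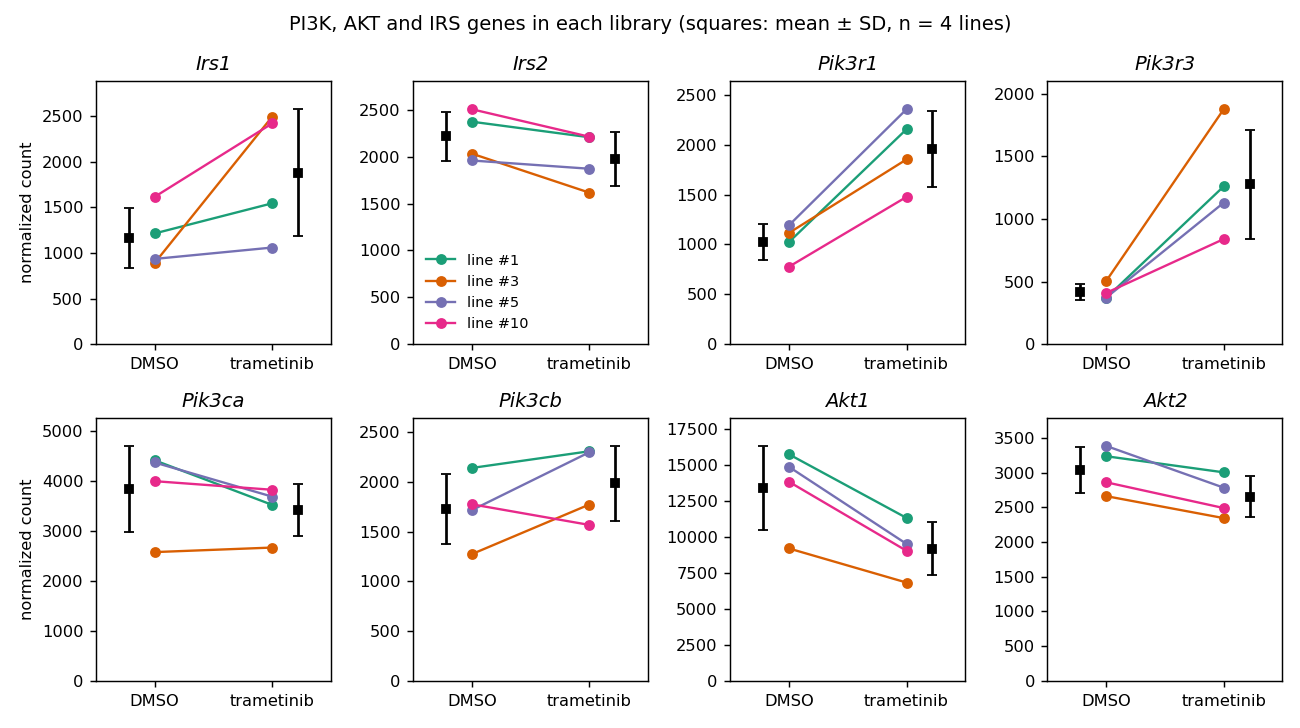
Normalized counts (linear axes from 0) of the 8 genes in the DMSO and trametinib libraries, with a line joining the libraries of each cell line and squares with bars for mean ± SD over 4 lines. Pik3r1 and Pik3r3 are separated between the groups, Akt1 descends in each line, and Irs1 rises most in line #3.

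At the adaptors, Irs1 rose and the difference of Irs2 missed the threshold. Irs1 (chromosome 1, 82233101 to 82291416, minus strand, GRCm38) is the adaptor that links the insulin and IGF-1 receptors to PI3K, and Irs2 (chromosome 8, 10984681 to 11008458, minus strand) is its close relative. Upstream sequences of both genes are shown because FOXO factors are known to act on IRS genes and each window holds the insulin response motif CAAAACA beside an E-box CACGTG. The lines below give the 130 bases just before the RefSeq transcription start on GRCm38.p6, written 5′ to 3′ on the strand of the gene (minus for both), at chr1:82291440-82291569 for Irs1 and chr8:11008930-11009059 for Irs2. Capitals mark the E-box and the insulin response motif, which reads TGTTTTG on this strand.
Irs1: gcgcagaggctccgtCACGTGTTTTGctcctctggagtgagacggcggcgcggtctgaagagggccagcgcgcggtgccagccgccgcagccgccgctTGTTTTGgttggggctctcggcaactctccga
Irs2: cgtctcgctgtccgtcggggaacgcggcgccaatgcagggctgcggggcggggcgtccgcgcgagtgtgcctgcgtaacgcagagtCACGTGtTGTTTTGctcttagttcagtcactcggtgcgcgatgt

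In Irs1 the E-box lay at -115 from the start and shared 2 bases with an insulin response motif at -111, and a further copy lay at -32. In Irs2 the E-box lay at -44 and the insulin response motif at -37. Among 32851 RefSeq promoter windows of 300 bases (250 before to 50 after a start), searched on both strands, 6.28% held the insulin response motif, 7.15% the E-box and 0.408% both. The same search looked for the FOXO motif GTAAACA, in 3.65% of windows, the ETS motif ACCGGAAG, in 2.30%, the AP-1 motif TGANTCA, in 7.81%, and the cAMP response motif TGACGTCA, in 1.79%. Across the other genes, Akt1 had the FOXO motif at -161 from its start at 112674884 and no motif around its start at 112674276. Pik3ca had AP-1 at -97 and ETS at -47, while none of the 6 motifs was in the windows of Pik3cb, Akt2, Pik3r1 or Pik3r3. The shares above are per window, and a gene with more windows has more chances of a match. A match describes letters in this window and is not a site of binding.

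Irs1 stood at 1214, 891, 935 and 1615 normalized counts in lines #1, #3, #5 and #10 with DMSO, and at 1544, 2494, 1059 and 2420 with trametinib. Each line was higher with trametinib, but the groups overlapped, since line #10 with DMSO exceeded lines #1 and #5 with trametinib. The mean went from 1164 ± 333 to 1879 ± 696 (SD, n = 4), a log2 change of 0.65 (SE 0.21, 95% CI 0.15 to 1.15), with a limma adjusted p of 0.0376. The fold change differed widely between lines: 1.27 in #1, 2.80 in #3, 1.13 in #5 and 1.498 in #10. Without line #3 the log2 change was 0.37 (limma adjusted p = 0.0240). The call was lost without line #1 (0.0613) and without line #10 (0.0889), and also without the line block (limma adjusted p = 0.146), the range over 15 alternatives being 0.0190 to 1.

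Irs2 stood at 2373, 2032, 1959 and 2506 normalized counts with DMSO and at 2207, 1616, 1871 and 2212 with trametinib, in the same line order. It was lower in each line, and the groups overlapped. The mean was 2217 ± 263 and 1977 ± 288 (SD, n = 4), with a log2 difference of -0.17 (SE 0.09, 95% CI -0.38 to 0.04) that did not pass limma's test (adjusted p = 0.140). On centring each library on its median, Irs2 passed (-0.23, limma adjusted p = 0.0456) and Irs1 did not (0.59, 0.0734). The change of Irs1 exceeded that of Irs2 in 4 of 4 lines, by 0.82 ± 0.70 on the log2 scale (SD, n = 4). An exact two-sided sign-flip permutation test gave p = 0.13, the smallest that 4 lines allow, and 0.167 after adjustment over the 4 pairs of genes compared. Without line #3 the mean difference was 0.49.

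Per kilobase of merged exon, which allows levels of different genes to be set side by side, Irs1 was 26.3 ± 3.27% of Irs1 plus Irs2 with DMSO and 38.9 ± 10.6% with trametinib (SD, n = 4). The share was higher in every line, from 23.3% to 51.6% in line #3, the only library in which Irs1 exceeded Irs2 per length. The summed level of both adaptors changed by -0.0662% to 26.1% over the lines. Gm9747, on the opposite strand, covers 2822 of the 9144 exonic bases of Irs1 and was listed at 0 in 7 of 8 libraries, with 0.960 in line #10 with trametinib. The gene 9530052E02Rik overlaps 162 of the 6323 exonic bases of Irs2 on the other strand and reached at most 10.7 normalized counts.

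Regulatory subunits stabilise the catalytic subunit, hold it back at rest and bind phosphorylated IRS through their SH2 domains. Pik3r3 (chromosome 4, 116221618 to 116303056, plus strand), which encodes the regulatory subunit p55γ, stood at 371, 505, 372 and 410 normalized counts in lines #1, #3, #5 and #10 with DMSO and at 1260, 1876, 1130 and 839 with trametinib. The lowest trametinib library was above the highest DMSO library. The mean went from 414 ± 63.0 to 1276 ± 437 (SD, n = 4), a log2 change of 1.57 (SE 0.16, 95% CI 1.20 to 1.95, limma adjusted p = 0.000580). By line the log2 change was 1.76, 1.89, 1.60 and 1.03, line #10 responding least. A gene model on the same strand, Gm49337, shares 1289 of the 5300 exonic bases of Pik3r3. It had no row under this name among the values used here, so how reads of these bases were assigned is not known.

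Pik3r1 (chromosome 13, 101680563 to 101768217, minus strand) encodes p85α and the shorter forms p55α and p50α, the most widely used regulatory subunits. It stood at 1025, 1116, 1193 and 777 normalized counts with DMSO and at 2156, 1853, 2356 and 1477 with trametinib. Here too every trametinib library was above every DMSO library, and line #10 was lowest in both groups. The mean went from 1028 ± 181 to 1961 ± 383 (SD, n = 4), a log2 change of 0.93 (SE 0.09, 95% CI 0.70 to 1.15, limma adjusted p = 0.000602). The change by line was 1.07, 0.73, 0.98 and 0.93 on the log2 scale. Pik3r1 and Pik3r3 were the 2 of 8 genes whose groups did not overlap, beside 31.3% of all genes tested. The log2 change of Pik3r1 minus that of Pik3r3 was -0.64 ± 0.43 (SD, n = 4), below 0 in 4 of 4 lines, with p = 0.13 in the exact sign-flip permutation test and 0.167 adjusted.

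Pik3r2, which encodes the regulatory subunit p85β, was the most abundant of the regulatory genes per kilobase and showed no called change (log2 change 0.17, limma adjusted p = 0.106). It made up 85.3 ± 3.40% of Pik3r1, Pik3r2 and Pik3r3 together with DMSO and 73.1 ± 7.29% with trametinib (SD, n = 4). The share of Pik3r3 went from 6.33 ± 1.21% to 14.7 ± 4.88% and that of Pik3r1 from 8.39 ± 2.52% to 12.1 ± 3.94%, both higher in 4 of 4 lines. The summed regulatory level per kilobase was 28.1% to 38.5% higher with trametinib over the lines. Its ratio to the summed class IA catalytic genes was 1.92 ± 0.53 with DMSO and 2.45 ± 0.53 with trametinib, higher in each line. These shares are descriptions of RNA, without a test.

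**Figure D2:**
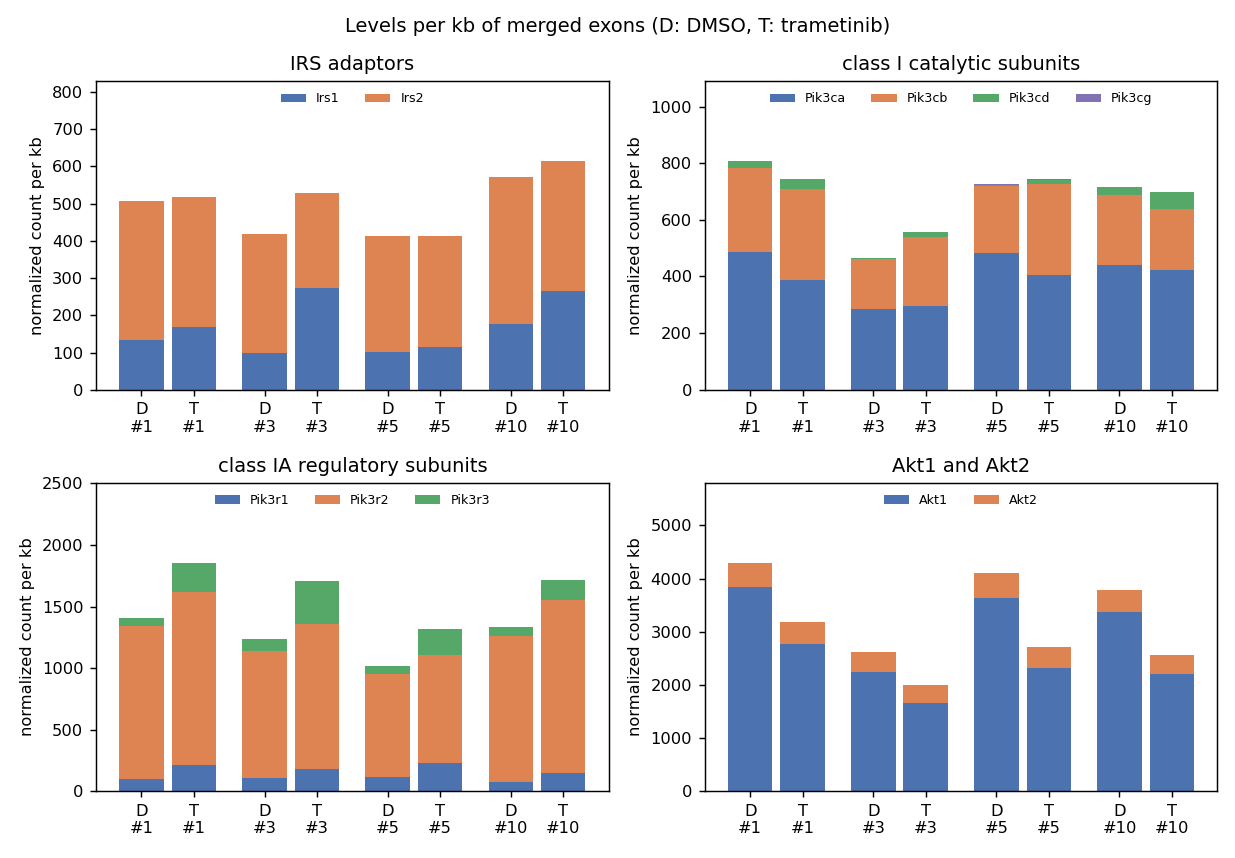
Stacked normalized counts per kilobase of merged exon (bars start at 0) of the IRS, class I catalytic and regulatory genes and of Akt1 and Akt2 in the DMSO (D) and trametinib (T) library of each line. Pik3r2 averages 85.3% of the regulatory genes with DMSO and 73.1% with trametinib, and Akt1 is the larger part of its bar in every library.

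The catalytic subunits Pik3ca and Pik3cb, which phosphorylate the membrane lipid PIP2 to PIP3, passed no test of treatment. Pik3ca (chromosome 3, 32397671 to 32468486, plus strand), which encodes p110α, stood at 4419, 2580, 4375 and 4001 normalized counts with DMSO and at 3526, 2671, 3691 and 3828 with trametinib. Line #3 was lowest in both groups, and the groups overlapped. The log2 difference was -0.15 (SE 0.09, 95% CI -0.37 to 0.08), with a limma adjusted p of 0.228 and 3 of 4 lines lower. Pik3cb (chromosome 9, 99036654 to 99140621, minus strand), which encodes p110β, stood at 2140, 1274, 1716 and 1775 with DMSO and at 2308, 1772, 2298 and 1567 with trametinib. It was higher in lines #1, #3 and #5 and lower in line #10. The log2 difference was 0.21 (SE 0.13, 95% CI -0.10 to 0.51, limma adjusted p = 0.215).

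The log2 change of Pik3ca minus that of Pik3cb was -0.35 ± 0.33 (SD, n = 4), below 0 in 3 of 4 lines, with p = 0.25 in the exact sign-flip permutation test and 0.25 adjusted. Per kilobase, Pik3ca was 62.3 ± 2.80% of the class I catalytic genes with DMSO and 54.9 ± 3.72% with trametinib (SD, n = 4), lower in every line. Pik3cb went from 35.6 ± 2.31% to 40.3 ± 6.13%, higher in 3 of 4 lines. The summed class IA catalytic level changed by -7.79% to 19.97% over the lines.

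Akt1 (chromosome 12, 112653821 to 112674884, minus strand), the widely expressed AKT kinase linked to growth and survival, was the most abundant of the 8 genes. It stood at 15753, 9207, 14881 and 13844 normalized counts in lines #1, #3, #5 and #10 with DMSO and at 11332, 6838, 9526 and 9047 with trametinib. Each line was lower with trametinib, with changes of -25.7% to -35.98%, and the groups overlapped because line #3 was low in both. The mean went from 13421 ± 2916 to 9186 ± 1849 (SD, n = 4), a log2 change of -0.54 (SE 0.08, 95% CI -0.74 to -0.34, limma adjusted p = 0.00226). Without the line block, which leaves the differences between lines in the error, the limma adjusted p was 0.08999.

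Akt2 (chromosome 7, 27591552 to 27640826, plus strand), the AKT kinase best known for insulin-stimulated glucose uptake, stood at 3235, 2661, 3384 and 2861 normalized counts with DMSO and at 3004, 2345, 2783 and 2489 with trametinib. It was lower in each line, and the groups overlapped. The log2 difference was -0.19 (SE 0.08, 95% CI -0.38 to -0.005), which missed the threshold (limma adjusted p = 0.0784). Taking the log2 change of Akt2 from that of Akt1 left -0.35 ± 0.07 (SD, n = 4), below 0 in 4 of 4 lines, with p = 0.13 in the exact sign-flip permutation test and 0.167 adjusted.

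**Figure D3:**
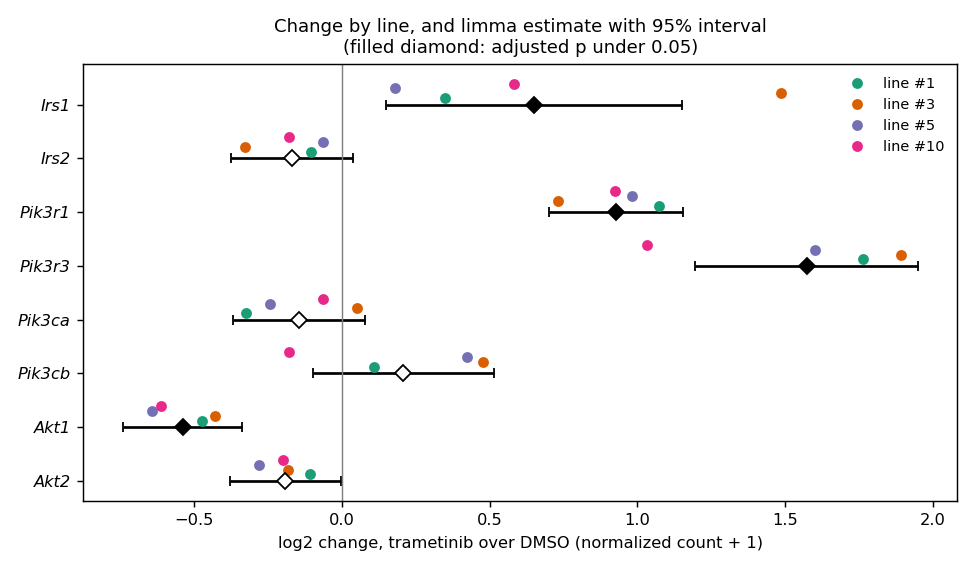
Log2 change with trametinib of the 8 genes: one point for each of 4 lines, with the fitted change and its 95% CI from limma. Pik3r3, Pik3r1 and Irs1 lie above 0, Akt1 below, and the lines spread most for Irs1.

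The lines differed from each other beyond treatment for 3 of the 8 genes, Akt1, Pik3ca and Pik3r1 (limma moderated F-test, adjusted p = 0.0198, 0.0343 and 0.0450), beside 27.6% of all genes tested. Akt1 and Pik3ca were lowest in line #3 in both groups, and Pik3r1 in line #10. On leaving out a line the calls were 0 of the 8 without line #1, 2 without line #3, and 1 without line #5 or line #10, beside 2028, 4558, 2518 and 2097 genes in all, against 4391 with every line.

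Per kilobase of exon, the order of mean levels with DMSO was Akt1 (3275 ± 712), Akt2 (426 ± 46.7), Pik3ca (423 ± 94.96), Irs2 (351 ± 41.7), Pik3cb (240 ± 49.4), Irs1 (127 ± 36.5), Pik3r1 (102 ± 17.9) and Pik3r3 (78.2 ± 11.9; SD, n = 4). The ranges over lines overlapped between Akt2, Pik3ca and Irs2, between Irs1 and Pik3r1, and between Pik3r1 and Pik3r3. Akt1 stood clear of Akt2, and Irs2 of Pik3cb, while Pik3cb and Irs1 nearly touched (177.1 and 176.6). With trametinib the order was Akt1 (2242 ± 451), Pik3ca (377 ± 57.3), Akt2 (372 ± 41.4), Irs2 (313 ± 45.6), Pik3cb (276 ± 52.1), Pik3r3 (241 ± 82.4), Irs1 (206 ± 76.1) and Pik3r1 (195 ± 38.0). By merged exons, each neighbour from Pik3ca to Pik3r1 overlapped the next. The order depended on the length used: by the longest transcript, an alternative chosen after seeing the data, Akt2 stood clear above Pik3ca in both groups (585.6 to 745 against 289 to 496 per kilobase with DMSO, and 516 to 661 against 299.6 to 429 with trametinib), and Pik3r1 ranked above Irs1.

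The rest of the pathway was read from lists of 123 genes, of which 107 were tested, with 42 called higher, 21 lower and 44 not called, and a median log2 change of 0.19. The counts of every list stand beside 27.3% higher, 25.6% lower and 53.0% called in all over the genes tested, and nothing particular to a list is read from them. Up to 4 genes of each list are named, those with the largest change among the calls that went the same way in all lines. Upstream of IRS, 4 of 8 genes tested rose and 2 fell, with a median log2 change of 1.06. Igfbp3 and Igfbp4, which bind IGFs, changed by -2.95 and -1.32, Igfbp7 by 2.28 and the IGF2 scavenger receptor Igf2r by 1.31 (limma adjusted p at most 0.00261). The 2 receptors that phosphorylate IRS also rose, and are named here because of their values. Insr stood at 1709, 2347, 1425 and 1751 normalized counts with DMSO and at 3513, 5655, 3337 and 3584 with trametinib (log2 change 1.14, limma adjusted p = 0.000290). Igf1r stood at 3131, 2697, 2618 and 3488 and at 5466, 6946, 7068 and 6075 (log2 change 1.10, limma adjusted p = 0.00109). For both receptors every trametinib library exceeded every DMSO library, in data where the groups did not overlap for 31.3% of all genes tested.

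Among 16 other adaptors and brakes at the receptor, 5 rose and 2 fell (median log2 change 0.17), the number that rose being 3 without line #1 or line #10 and 2 on median centring, without the line block or without the mean-variance trend. The docking proteins Gab1 and Gab2 changed by 1.99 and 0.88, the inhibitory adaptor Sh2b3 by -0.98 and the phosphatase Ptpn2 by -0.75 (limma adjusted p at most 0.00415). Among 11 other PI3K subunits and modulators, 7 rose and 1 fell (median 0.84), and 4 rose without the line block. Pik3ip1, a membrane protein that inhibits PI3K, stood at 88.3, 72.03, 67.5 and 68.8 normalized counts with DMSO and at 666, 1815, 407 and 434 with trametinib (log2 change 3.19, limma adjusted p = 0.000745). It was several-fold higher in each line, and line #3 stood highest. Pik3cd, the p110δ subunit best known from leukocytes, rose by 1.53 (limma adjusted p = 0.00752, and 0.179 without the line block). Pik3r5, a subunit of PI3Kγ, fell by 1.32, while Pik3r6, another such subunit, was low with DMSO (1.82, 0, 6.63 and 18.0 normalized counts) and at 50.4, 59.8, 14.4 and 93.8 with trametinib.

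Of 12 phosphatases that oppose the pathway, 5 rose and 3 fell (median log2 change 0.06). Inpp4b, which removes a phosphate from PI(3,4)P2, changed by -1.85, and the inositol lipid 5-phosphatases Inpp5k and Inpp5j by 1.39 and 1.01. Ppp2r5b, a PP2A regulatory subunit, changed by 1.21 (limma adjusted p of these 4 genes at most 0.00276). Of 10 AKT-related kinases and modulators, 4 rose and 3 fell (median 0.00). The number that fell was 1 without line #5, and without the line block 2 rose and 1 fell. Sgk1, a kinase with AKT-like substrates, rose by 1.86 (limma adjusted p = 0.000549, and 0.0584 without the line block), and Trib3, a pseudokinase that binds AKT, by 1.32. Trib1 changed by -0.85 (limma adjusted p = 0.00113, and 0.0683 without the block) and Sgk2 by -1.65 (0.0148, and 0.0607 without line #5).

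In the list of TOR complexes and outputs, 4 of 22 genes rose and 9 fell (median log2 change -0.16), against 2 and 5 without the line block. Pdcd4, a translation repressor that the S6 kinase marks for degradation, rose by 1.66. Prr5, a TORC2 component, changed by -1.04, Rps6, the ribosomal protein that S6 kinase phosphorylates, by -1.02 and the cap-binding factor Eif4e by -0.89 (limma adjusted p of these 4 genes at most 0.00133). Of 13 FOXO factors and other AKT substrates, 4 rose and 1 fell (median 0.16), the latter being Gsk3a, and 2 fell on quantile normalization. Foxo6 and Foxo3 rose by 2.08 and 1.29, and the actin-binding Palld by 1.38. Gsk3a, a kinase that AKT inhibits, changed by -0.40 (limma adjusted p = 0.0133), a call that ended on rescaling to equal totals (0.0519) and without the block (0.206).

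Genes listed as FOXO targets rose in 11 of 18 cases by limma, with a median log2 change of 0.66. The higher count was 6 without the line block. No gene was called lower, but 2 were without line #10, 2 on centring each library on its median and 1 on quantile normalization, and 2 were lower here at an unadjusted p under 0.05: Txnip, an inhibitor of thioredoxin, at -0.30 and Sod2, the mitochondrial superoxide dismutase, at -0.40 (limma adjusted p = 0.0589 and 0.0561). Fbxo32, a ubiquitin ligase of muscle atrophy, rose by 2.91, Gadd45a, a stress and DNA damage gene, by 1.86, Cat (catalase) by 1.64 and Sesn3, a sestrin that restrains TORC1, by 1.41 (limma adjusted p at most 0.000447). Of the 11 genes, Insr is also in the list of the receptors and Rictor in that of TOR complexes.

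**Figure D4:**
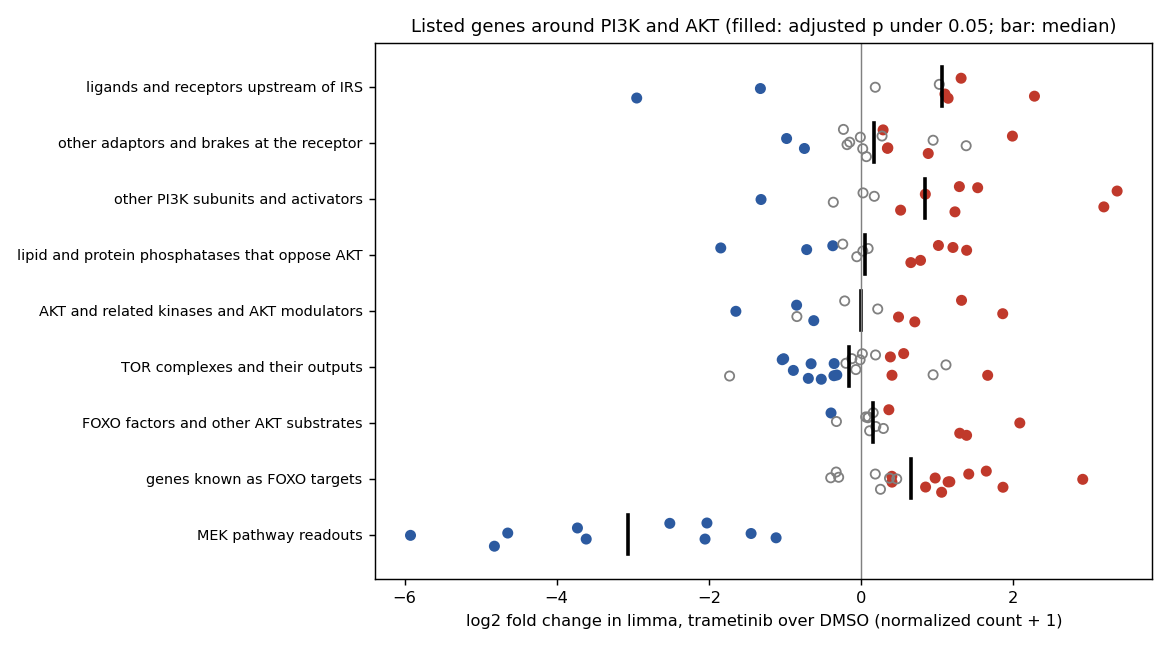
Log2 change with trametinib of each tested gene in the pathway lists, with the median of each list and calls by limma marked. FOXO targets have 11 of 18 genes called higher (6 without the line block) and none called lower (2 without line #10 or on median centring). The MEK readouts have 10 of 10 lower. Over all genes tested, 27.3% were called higher and 25.6% lower.

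Across the 8 libraries, the genes whose log2 levels followed Irs1 most closely were AC122850.1, Entpd4, Gprin1, Rell2 and Slc6a17, with Pearson's r of 0.97, 0.96, 0.96, 0.96 and 0.95. Those closest to Irs2 were Rab11fip4, Dmap1, Txnrd2, Abhd8 and Gm10420 (r of 0.99, 0.98, 0.97, 0.97 and 0.96). For Pik3r1 they were Cpeb1, Eif2ak3, Sema4f, Sema3f and Il6st, with r from 0.98 to 1.00. These values describe 8 libraries that share treatment and line, and carry no test.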

How the data were processed

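RNA-seq was made per the labels from stranded, poly(A)-selected libraries on an Illumina HiSeq. The deposited table holds 1 normalized count (signal: gene counts divided by a size factor by the authors) per gene and library. The submitters' processing notes name CASAVA 2.17, Salmon 0.12, DESeq2 1.18 and build mm10; the strand setting of counting is not given in the sources used here. Of low values (under 20 times the step that 1 read is worth), 40.7% to 62.6% lay within 0.02 steps of a whole multiple, so whole reads were not recovered and no count test was run. A step was worth 0.775 to 1.24 normalized counts, for an approximate depth of 29300000 to 46000000 reads. With line as a block, the p-values of treatment weigh a change against how it varies from line to line. With 1 library per line and treatment, this variation cannot be told apart from noise between libraries.

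Genes with a mean of at least 10 were fitted with limma 3.58.1 (R 4.3.3) on log2(value + 1), a scale that understates changes of low genes, with line as a block and a mean-variance trend. The labels give both libraries of a line its number, and their deviations correlated at 0.63 to 0.72. Pairs of genes were compared by exact sign-flip permutation (smallest p 0.13). Lengths are merged exons of GENCODE M21. RefSeq promoter windows (GRCm38.p6) matched all 8 genes, in 15 windows. Named list genes are up to 4 per list with the largest change among calls alike in every line, and genes most alike are the 5 with the highest r. The members and lists were chosen with earlier results of these data known. The fit was also run on simulated data in which few genes changed, and alike in every line. That setting differs from these data, so error rates here were not tested. Some genes and an allele are not reported here.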

Additional observations from a re-analysis of the deposited data

How the results depend on the processing

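No gene of the 8 changed direction under any of 15 alternatives. Pik3r1 (log2 change 0.87 to 1.05) and Pik3r3 (1.47 to 1.75) were called in 14, Akt1 (-0.60 to -0.34) in 13 and Irs1 (0.37 to 0.80, also the range on leaving out a line) in 8. Akt2 and Irs2 were called in 1, on centring each library on its median (-0.25, limma adjusted p = 0.0414, and -0.23, 0.0456), which made 3 members lower. Irs1 was then 0.59 (0.0734), and it also missed with no filter (0.65, 0.0629) and with no mean-variance trend (0.65, 0.0829). Without the replicate block that pairs the libraries of a line, Irs1 (0.65) and Akt1 (-0.54) missed, leaving 0 members lower, and calls were 2205 higher and 2347 lower over all genes and 27 and 13 in the pathway lists. A test against a minimum of 2-fold left 0 members higher and 0 lower (Pik3r1 0.93, adjusted p = 1; Pik3r3 1.57, 0.0797; Akt1 -0.54; Irs1 0.65), with 557 and 176 genes in all and 9 and 2 in the lists. The replicate block changed no other member's call. Members that differed between lines numbered 1 on equal totals, 1 with no filter, 0 without the trend and 0 to 2 on leaving out a line, beside 2862, 1879 and 2028 to 4558 genes in all for the last 3. By longest transcript, the Pik3r3 share of regulatory genes with DMSO was 4.88%. The median change of all genes was 0.07, and 0.20, -0.03 and 0.01 on equal totals, quantile normalization and centring. With 4 lines, 1 library each and unknown whole reads, small changes such as those of Pik3ca and Pik3cb are not resolved. The causes were not tested.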
